A study of Mus musculus with 6 samples.

Results

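The 9 genes described here encode enzymes of the methionine and one-carbon cycles: Mat1a, Gnmt, Pemt, Ahcy, Bhmt, Mtr, Cbs, Cth and Shmt1. They were taken by gene name from a mouse expression array, which carried 14 probes for them among 41174 probes that were not controls (9 of 27343 gene names). Each array held RNA from the whole liver of 1 male BALB/c mouse. Mice in the MC-LR group drank water with 100 µg/L microcystin-LR, a cyanobacterial toxin that inhibits protein phosphatases of hepatocytes, for 12 months from 6 weeks of age, and control mice drank sterile water for as long. Each group had 3 livers, which the study describes as coming from independent mice, and no genotype or other agent differed between the groups. In such bulk tissue, fewer cells of a type and less RNA per cell cannot be told apart.

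In liver, methionine is turned into S-adenosylmethionine, the methyl donor of most methylation reactions, and methyltransferases release S-adenosylhomocysteine, which is split to homocysteine. Homocysteine is either methylated back to methionine, with betaine or methylfolate as donor, or passed through cystathionine to cysteine. Serine feeds the folate side of the cycle with carbon units, and the liver carries out much of the body's methionine breakdown.

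Sequences are shown for the Bhmt probe, for both Shmt1 probes and for the Ahcy probe tied to a RefSeq mRNA, since Bhmt and Shmt1 had the smallest p by their brightest probe and the origin of the other Ahcy probes is uncertain. All are written 5′ to 3′ as in the scanner files, with genome positions of build mm9 on the minus strand, and no base is set in capitals because none is compared. The Bhmt probe lies at chr13:94390054-94390113, the Ahcy probe at chr2:154891321-154891380, the brighter Shmt1 probe at chr11:60603099-60603158 and the dimmer one at chr11:60612096-60612155. An exon annotation of mm9 was not used here.
Bhmt A_51_P335051: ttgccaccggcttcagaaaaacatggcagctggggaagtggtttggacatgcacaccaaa
Ahcy A_52_P176160: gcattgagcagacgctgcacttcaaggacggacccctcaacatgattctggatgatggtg
Shmt1 A_52_P673499: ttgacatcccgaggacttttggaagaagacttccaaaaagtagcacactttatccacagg
Shmt1 A_52_P120055: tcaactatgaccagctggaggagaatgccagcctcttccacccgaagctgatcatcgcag

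All 14 probes were well above background on all 6 arrays, and 0 spots were saturated. The first slide carried controls 1 and 2 alone, and slide 2 carried control 3 with all 3 MC-LR livers, so within slide 2 the comparison is with control 3 only. On slide 1, 68.3% and 64.9% of spots that were not controls lay well above background, against 71.1% to 73.7% on slide 2. This share thus ran with slide, which is partly confounded with group, and the number of arrays limits the precision. Values are log2 signals on the authors' quantile normalized scale, errors of differences are SE, and a higher value means more signal of that probe.

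None of the 14 probes passed the adjusted threshold of 0.05 (limma, Benjamini-Hochberg over 28507 probes kept as above background), the smallest adjusted p being 0.245. That threshold was passed by 3 of all probes (0.0105%). At an unadjusted limma p under 0.05, 2 probes were higher with MC-LR (1 each of Ahcy and Shmt1) and 1 was lower (Bhmt), 21.4% of the 14 against 12.9% of all probes (7.89% higher and 5.03% lower). Without control 1 the count was 1, the Ahcy probe alone, and without MC-LR 2 it was 5, the same 3 probes and the other Ahcy probes. The same 3 probes had no overlap between the groups, again 21.4%, against 20.3% of all probes (11.7% higher and 8.54% lower). With 1 probe per gene, 20.4% of all genes had no such overlap (11.2% higher and 9.20% lower). By their brightest probe, 5 enzymes were higher and 4 lower, with a median difference of 0.04 against -0.01 over all 18908 genes, of which 48.5% were higher. Within slide 2 the enzymes' median was -0.09.

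The size of the differences is given here beside the spread of the livers. Over all genes, the median SD within a group was 0.19 in controls and 0.16 with MC-LR. The median absolute difference of the 9 enzymes was 0.23 against 0.17 over all genes, and the SD within a group ran from 0.12 to 0.28 in controls and from 0.04 to 0.44 with MC-LR. For 8 of the 14 probes, control 3 stood farther from the mean of controls 1 and 2 than the groups stood from each other. A single liver scatters more than a group mean does, and the share over all probes was not counted. The MC-LR livers also differed among themselves. Against the control mean, MC-LR 1 had 6 of 9 enzymes higher and a median of 0.07, MC-LR 2 had 2 higher and a median of -0.09, and MC-LR 3 had 5 higher and a median of 0.09. The widest span over the enzymes was in MC-LR 3, from -0.68 to 0.61.

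**Figure D1:**
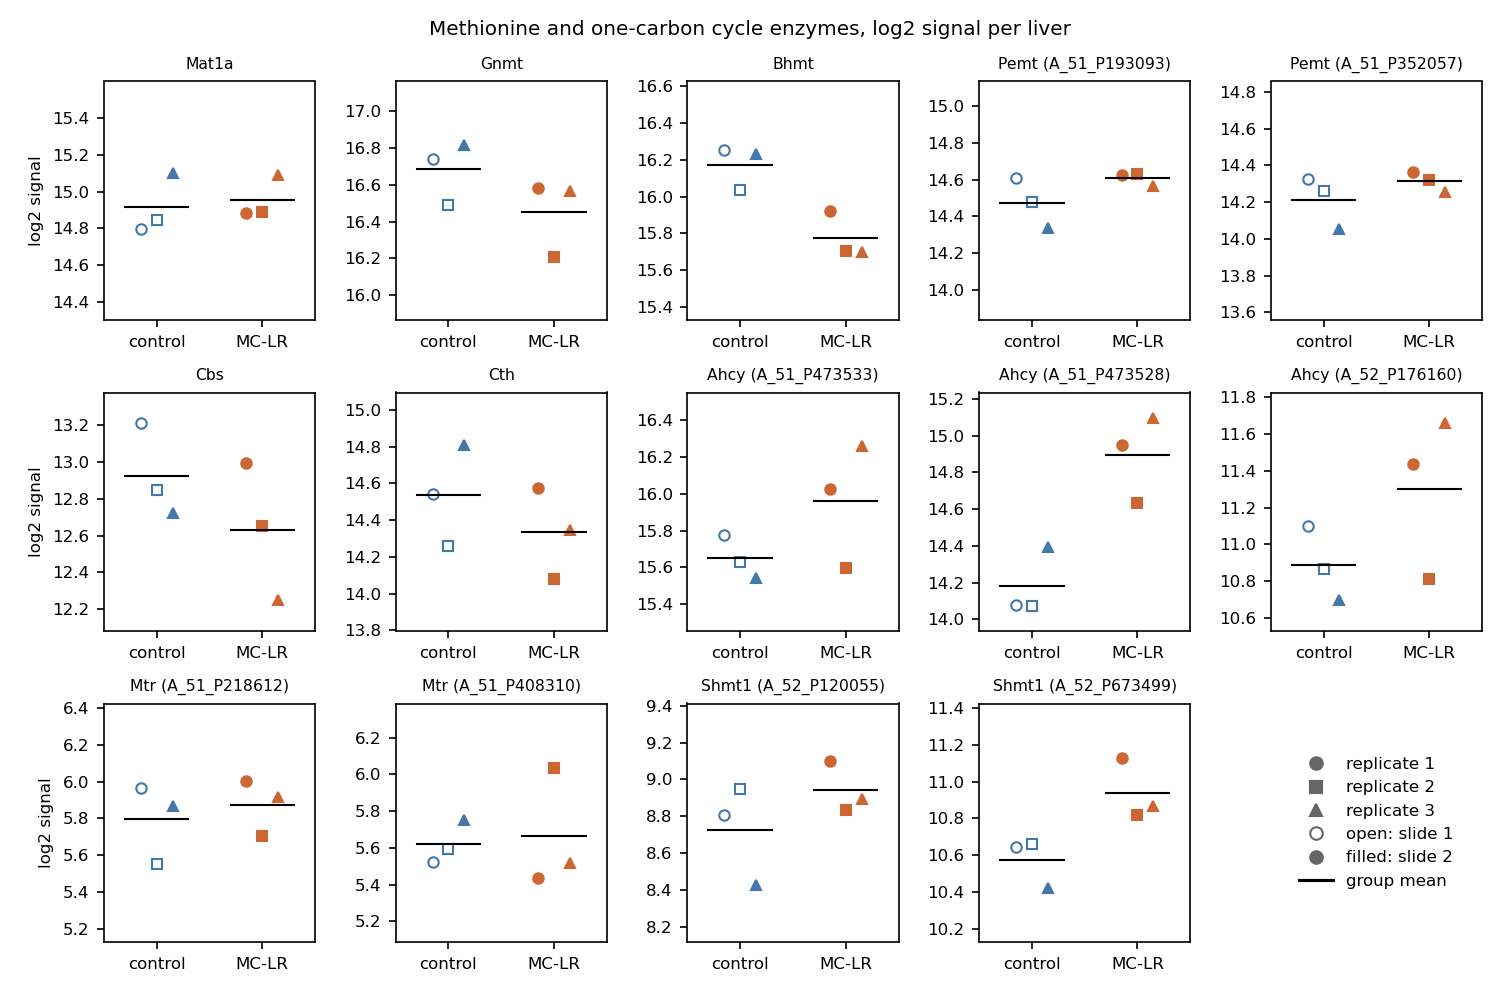
Log2 signal (y axis) of each of the 14 probes in control and MC-LR livers (x axis), with 1 point per liver, the shape giving the replicate number, open points slide 1, filled points slide 2, and a line at each group mean. All panels span the same log2 range on the y axis, and the groups stand apart for Bhmt, for Ahcy A_51_P473528 and for Shmt1 A_52_P673499.

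Mat1a encodes the methionine adenosyltransferase of adult liver, which makes S-adenosylmethionine. Its probe (chr14:41937140-41937199, plus strand) read 14.80, 14.85 and 15.10 in controls 1 to 3 and 14.89, 14.89 and 15.09 in MC-LR 1 to 3. The highest control and the highest MC-LR liver were nearly level, and the groups overlapped. The means were 14.92 ± 0.16 and 14.95 ± 0.12 (SD, n = 3), a difference of 0.04 ± 0.13 with a 95% interval of -0.27 to 0.35 (limma adjusted p = 0.920). The sign turned within slide 2, where the difference was -0.15.

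Mat2a and Mat2b encode the catalytic and regulatory subunits of the methionine adenosyltransferase found mainly outside the adult liver. Mat2a differed by 0.01 (limma adjusted p = 0.977). Mat2b was 0.24 higher with no overlap of the groups, without passing the test (limma adjusted p = 0.421), and its other probes differed by 0.21 and 0.28.

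Gnmt, an abundant liver enzyme that methylates glycine and so uses up excess S-adenosylmethionine, tended lower. Controls read 16.74, 16.49 and 16.82, and MC-LR livers 16.58, 16.21 and 16.57. MC-LR 2 was the lowest of the 6 livers, while MC-LR 1 and 3 lay above control 2, so the groups overlapped. The difference was -0.23 ± 0.15, with a 95% interval of -0.60 to 0.14 (limma adjusted p = 0.557), and -0.37 within slide 2. Without MC-LR 2 it was -0.11.

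Pemt methylates phosphatidylethanolamine to phosphatidylcholine and is another large user of S-adenosylmethionine in liver. Probe A_51_P193093 read 14.61, 14.48 and 14.34 in controls and 14.63, 14.63 and 14.57 with MC-LR, a difference of 0.13 ± 0.11 (limma adjusted p = 0.633). Probe A_51_P352057 read 14.33, 14.26 and 14.05 against 14.36, 14.32 and 14.26, a difference of 0.10 ± 0.11 (limma adjusted p = 0.732). In both probes the MC-LR livers lay close together and control 3 was the lowest of all 6, and the groups overlapped. Within slide 2 the differences were 0.27 and 0.26.

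Nnmt, which methylates nicotinamide, had the widest spread of the genes at neighbouring steps, with a difference of -0.25 ± 0.71. It stood at 13.39 in control 3, from which the MC-LR mean differed by -1.60.

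Ahcy, which splits S-adenosylhomocysteine to adenosine and homocysteine, was higher on average at all 3 of its probes, but the probes do not measure 1 transcript with certainty. Probe A_51_P473533 (chr2:154885817-154885876, minus strand), the brightest, is described in the scanner files by a transcript of the predicted gene Gm4737, and probe A_51_P473528 is placed on chromosome 16, at chr16:46153220-46153285. The RefSeq table of GRCm38.p6 puts Ahcy on chromosome 2 and Gm4737 on chromosome 16, with 1 shared synonym. Signal of the gene and of this copy cannot be told apart at these probes.

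Probe A_51_P473528 read 14.08, 14.07 and 14.39 in controls and 14.95, 14.63 and 15.10 with MC-LR. Every MC-LR liver lay above every control, with a gap of 0.24 between the groups. The difference was 0.71 ± 0.16, 1.64-fold, with a 95% interval of 0.32 to 1.11, and did not pass the test (limma adjusted p = 0.245). Within slide 2 it was 0.50, and with slide as a block it no longer reached an unadjusted limma p under 0.05 (adjusted p = 0.336).

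The other Ahcy probes overlapped between groups. Probe A_52_P176160, the one tied to the Ahcy RefSeq mRNA, read 11.10, 10.867 and 10.695 in controls and 11.44, 10.81 and 11.66 with MC-LR. MC-LR 1 and 3 were the highest livers, and MC-LR 2 lay among the controls. The difference was 0.41 ± 0.24, with a 95% interval of -0.17 to 1.00 (limma adjusted p = 0.513), and 0.61 within slide 2. Without MC-LR 2 it was 0.66.

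Probe A_51_P473533 read 15.78, 15.63 and 15.54 in controls and 16.03, 15.60 and 16.26 with MC-LR, with MC-LR 2 again among the controls. The difference was 0.31 ± 0.19 (limma adjusted p = 0.524), and 0.42 within slide 2. Without MC-LR 2 it was 0.49, and without MC-LR 3 it was 0.16. Ahcyl1 and Ahcyl2, which resemble Ahcy in sequence but are known for other roles, differed by -0.06 and -0.19. The further probes differed by 0.12 and -0.16 for Ahcyl1, and by -0.22, 0.16 and -0.17 for Ahcyl2. Signs were mixed at both genes, so no direction is given for either.

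Bhmt, which methylates homocysteine with betaine and is among the most abundant liver enzymes, was the enzyme with the lowest difference. Its probe read 16.25, 16.04 and 16.23 in controls and 15.92, 15.70 and 15.70 with MC-LR. Every MC-LR liver lay below every control, with a gap of 0.12 between the groups. The means were 16.17 ± 0.12 and 15.77 ± 0.13 (SD, n = 3), so that MC-LR livers were 1.32-fold lower, a difference of -0.40 ± 0.12 with a 95% interval of -0.68 to -0.11. It did not pass the test (limma adjusted p = 0.290). Control 3 lay 0.09 above the mean of the other controls, and within slide 2 the difference was -0.46 (limma adjusted p = 0.300 with slide as a block).

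Bhmt2 lies beside Bhmt on chromosome 13 and uses S-methylmethionine as methyl donor. The scanner files list transcripts of both genes for the Bhmt probe, so part of its signal may be of Bhmt2. Bhmt2 has its own probe at chr13:94426379-94426438, which matched the Bhmt probe at no more than 25 of 60 bases without gaps. That compares the probes alone, and does not show whether the Bhmt probe binds Bhmt2 transcripts. The Bhmt2 probe read 14.91, 14.84 and 14.91 in controls and 14.69, 14.61 and 14.65 with MC-LR. Its groups were also apart, with MC-LR lower by -0.24 ± 0.09 (limma adjusted p = 0.354), and the difference within slide 2 was -0.26. Chdh, which starts betaine synthesis from choline, differed by 0.10 at its brighter probe and by -0.09 at the other.

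Mtr, the vitamin B12 enzyme that methylates homocysteine with methylfolate, was the dimmest of the 9, and no difference was detectable at either probe. Probe A_51_P218612 read 5.96, 5.55 and 5.87 in controls and 6.0003, 5.70 and 5.92 with MC-LR, a difference of 0.08 ± 0.15 (limma adjusted p = 0.851). Probe A_51_P408310 read 5.52, 5.60 and 5.75 against 5.43, 6.04 and 5.52, a difference of 0.04 ± 0.18 (limma adjusted p = 0.947). The groups overlapped at both, and the livers did not keep their order between the probes: MC-LR 2 was the highest MC-LR liver at one and the lowest at the other. Within slide 2 the differences were 0.00 and -0.09.

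Mtrr, which reactivates Mtr by reducing its cobalamin, differed more without passing the test. It read 5.12, 4.995 and 5.51 in controls and 5.78, 5.84 and 5.69 with MC-LR. The groups were apart, with MC-LR 0.56 ± 0.16 higher (limma adjusted p = 0.278), but only 0.26 higher within slide 2, and 0.25 at its other probe.

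The transsulfuration enzymes both had negative differences that lay within the spread of the livers. Cbs, which joins homocysteine to serine, read 13.21, 12.85 and 12.72 in controls and 13.00, 12.65 and 12.25 with MC-LR. MC-LR 1 lay above controls 2 and 3, so the groups overlapped, while MC-LR 2 and 3 lay below every control. The difference was -0.29 ± 0.23, with a 95% interval of -0.85 to 0.26 (limma adjusted p = 0.615), and -0.09 within slide 2. Leaving out 1 array at a time moved it between -0.48 and -0.10.

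Cth, which releases cysteine from cystathionine, read 14.54, 14.26 and 14.81 in controls and 14.58, 14.08 and 14.35 with MC-LR. MC-LR 2 was the lowest and control 3 the highest, and the groups overlapped. The difference was -0.20 ± 0.19, with a 95% interval of -0.67 to 0.27 (limma adjusted p = 0.686). Within slide 2 it was -0.47, and without control 3 it was -0.06.

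Shmt1, the cytosolic enzyme that moves a carbon unit from serine to tetrahydrofolate, was higher on average at both of its probes. The brighter probe read 10.64, 10.66 and 10.42 in controls and 11.13, 10.82 and 10.87 with MC-LR. Every MC-LR liver lay above every control, with a gap of 0.16. The means were 10.58 ± 0.13 and 10.94 ± 0.17 (SD, n = 3), a difference of 0.36 ± 0.13 or 1.29-fold, with a 95% interval of 0.05 to 0.68. It did not pass the test (limma adjusted p = 0.348). Within slide 2 the difference was 0.52 (limma adjusted p = 0.266 with slide as a block).

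The dimmer Shmt1 probe read 8.81, 8.95 and 8.42 in controls and 9.10, 8.83 and 8.90 with MC-LR. Control 2 lay among the MC-LR livers, so the groups overlapped, and control 3 was the lowest liver at both probes. The difference was 0.22 ± 0.17 (limma adjusted p = 0.610), and 0.52 within slide 2. Without control 3 it was 0.07. Shmt2, the mitochondrial enzyme of the same reaction, read 12.46, 12.41 and 12.33 in controls and 12.84, 12.60 and 12.71 with MC-LR. Its groups were apart, with MC-LR 0.32 ± 0.11 higher (limma adjusted p = 0.325), and 0.39 higher within slide 2.

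**Figure D2:**
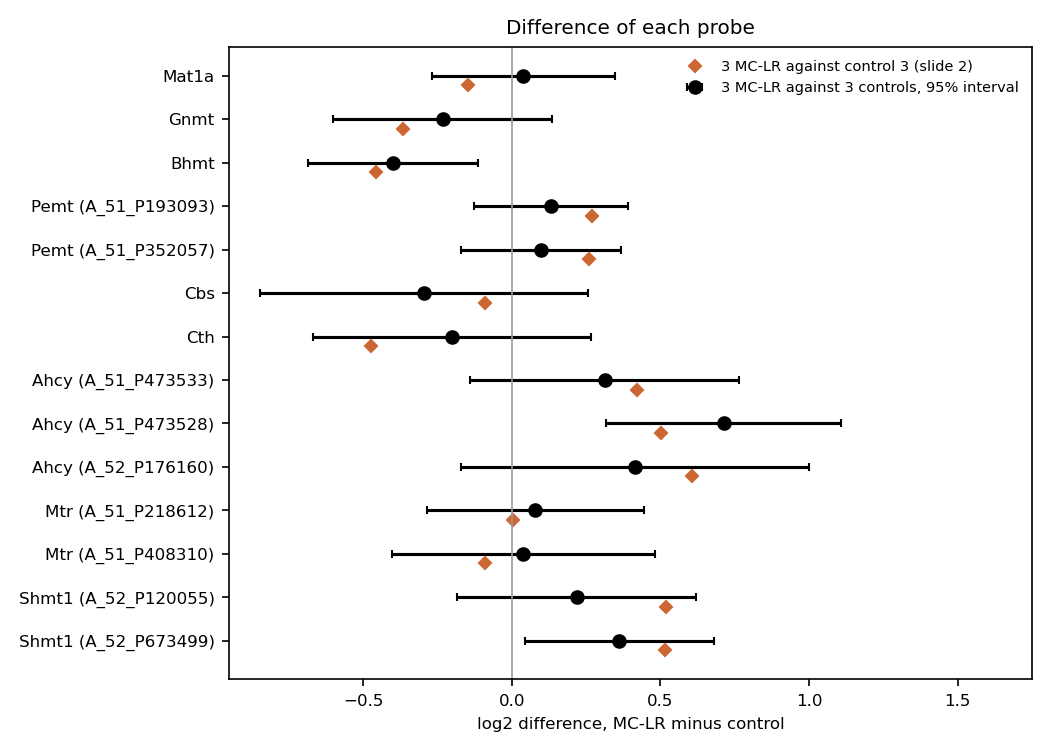
Log2 difference, MC-LR minus control (x axis), of each of the 14 probes (y axis), with black points and bars for 3 livers against 3 with the 95% interval from limma, and diamonds for the 3 MC-LR livers against control 3, on the same slide. The interval leaves out 0 for Bhmt (-0.40), Ahcy A_51_P473528 (0.71) and Shmt1 A_52_P673499 (0.36), and the diamonds of Mat1a and Mtr A_51_P408310 lie on the other side of 0 from their points.

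The genes around the cycle were described by 8 lists of 88 measured genes, 1 probe per gene. None passed the adjusted threshold, which 0.0159% of all genes did. At an unadjusted limma p under 0.05, 14 were higher and 7 lower with MC-LR, 15.9% and 7.95% of the 88, against 7.52% and 5.36% of all genes. The groups did not overlap for 30 genes, or 34.1%, against 20.4% of all genes. The lists were drawn up with earlier results of these livers known, so these shares are a description. For the genes named from the lists, 13 of 17 further probes had the same sign as the probe used.

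Among the genes at the same or neighbouring steps, 5 were higher and 5 lower (median -0.02), with 2 higher and 2 lower at an unadjusted limma p under 0.05, Mtrr, Shmt2 and Bhmt2 among them. Of 20 genes of the folate cycle, 11 were higher and 9 lower, 4 and 1 of them at that p. The median of this list was 0.09, with 0.16 within slide 2, 0.18 with median scaling and 0.04 without control 2. Slc19a1, the reduced folate carrier, read 9.64, 9.73 and 10.02 in controls and 10.40, 10.59 and 10.52 with MC-LR. Its groups were apart, by 0.71 ± 0.13 (limma adjusted p = 0.220), by 0.48 within slide 2 and by 0.29 at its other probe. Gldc, the glycine-cleaving decarboxylase, read 12.33, 12.13 and 11.38 in controls and 11.27, 10.71 and 10.89 with MC-LR, a difference of -0.99 ± 0.28 (limma adjusted p = 0.281). Control 3 lay near MC-LR 1, and within slide 2 the difference was -0.43.

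A list of small-molecule methyltransferases that use S-adenosylmethionine, which also held Gatm, the enzyme of the step before Gamt, had 6 of 8 genes higher, with 3 higher and 1 lower at an unadjusted limma p under 0.05. The lower one was Gatm, which uses no S-adenosylmethionine and is named here after its values were seen, at -0.44. The list median was 0.19, with 0.35 within slide 2 and 0.05 without control 3. Inmt, which methylates indole amines, read 14.37, 13.65 and 13.81 in controls and 15.80, 14.91 and 15.23 with MC-LR. Every MC-LR liver was above every control, 2.58-fold on average, a difference of 1.37 ± 0.29 (limma adjusted p = 0.232) and 1.499 within slide 2. Hnmt, which methylates histamine, was 0.33 ± 0.10 higher (limma adjusted p = 0.288).

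Of 15 genes of choline and betaine metabolism, 8 were higher and 7 lower (median 0.07). The median turned to -0.09 without control 2 and to -0.06 with slide as a random block. Of the 15, 2 were higher and 3 lower at an unadjusted limma p under 0.05, with differences over the list from -1.79 to 0.62. Etnk2, an ethanolamine kinase, differed by 0.62 ± 0.14 (limma adjusted p = 0.240), by 0.36 within slide 2 and by 0.12 at its other probe. Pcyt1a, the regulated enzyme of phosphatidylcholine synthesis, differed by 0.42 ± 0.10 (limma adjusted p = 0.250), with its other probe at 0.47. Of 9 genes of cysteine and sulfide metabolism, 3 were higher and 6 lower (median -0.06, and -0.0036 to -0.14 with 1 array left out). That median turned to 0.01 with 75th percentile scaling and to 0.05 with median scaling. Mpst, which transfers sulfur from mercaptopyruvate, was 0.55 ± 0.13 higher (limma adjusted p = 0.249), and Tst, or rhodanese, 0.30 higher (limma adjusted p = 0.447).

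Methionine salvage and polyamine genes were higher in 9 of 10 cases (median 0.14), but the median was 0.01 within slide 2 and 0.27 without control 3. Srm, spermidine synthase, differed by 0.58 ± 0.14 (limma adjusted p = 0.249), and Enoph1, of the salvage pathway, by 0.20 (limma adjusted p = 0.507), with 0.08 within slide 2 and 0.48 at its other probe. Serine synthesis and breakdown genes gave 2 higher and 4 lower of 6 (median -0.07), with a median of -0.41 within slide 2 and 0.08 without control 3. Psph, which makes serine, differed by -0.18, and by 0.08 within slide 2. Sdsl, which resembles serine dehydratase, differed by -0.17, and by -0.35 within slide 2. Vitamin B12 and B6 handling gave 7 higher and 3 lower of 10 (median 0.05). Pdxk, pyridoxal kinase, differed by 0.54 ± 0.19 (limma adjusted p = 0.346), and Mmadhc, of cobalamin trafficking, by 0.21 (limma adjusted p = 0.492).

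**Figure D3:**
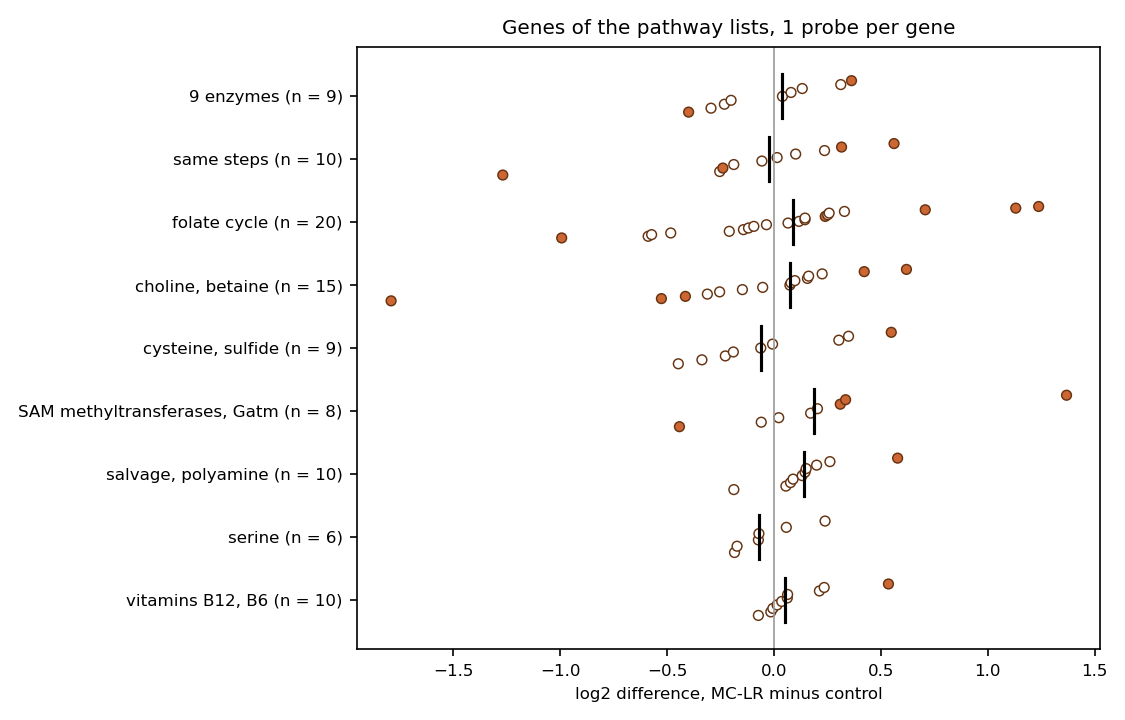
Log2 difference, MC-LR minus control (x axis), of each gene of the 9 enzymes and of the 8 lists (y axis, with the number of genes), 1 point per gene, filled where the unadjusted limma p is under 0.05, and a line at each median. The medians lie between -0.07 and 0.19, and filled points lie on both sides of 0.

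Values of other gene groups are given beside those of the enzymes, and their part in the values above was not tested. No gene of these groups passed the adjusted threshold. Of 13 core clock genes, 7 were higher and 2 lower at an unadjusted limma p under 0.05, against 7.52% and 5.36% of all genes. Their mean level was 7.00 to 8.08 in controls and 8.71 to 8.83 with MC-LR. Of 9 genes of hepatocytes around the central vein 8 were higher (median 0.31, and 0.72 within slide 2), 2 of them at that p. Of 8 genes of hepatocytes around the portal tract 5 were higher (median 0.09, and -0.18 within slide 2), 0 at that p. Hepatocyte markers were all well above background in every liver, at a mean level of 15.53 to 15.75 in controls and 15.52 to 15.65 with MC-LR. Of these 8 markers 3 were higher and 5 lower, 1 of the latter at an unadjusted limma p under 0.05. Their median was -0.07, and -0.0054 within slide 2. All 8 Kupffer cell and all 8 endothelial markers had negative differences, while 48.5% of all genes were higher. At an unadjusted limma p under 0.05, 0 of the Kupffer and 2 of the endothelial markers were lower. Mean levels were 11.16 to 12.04 in controls against 10.84 to 11.53 for Kupffer markers, and 9.92 to 10.07 against 9.50 to 9.83 for endothelial ones. The Kupffer median was -0.23, and -0.65 within slide 2, while the endothelial median was -0.36, and 0.02 within slide 2.

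Medians of the markers of other cell types moved between the full comparison and slide 2. For 5 cholangiocyte genes (Cftr was not above background) the median was -0.10, and -0.76 within slide 2, and for 7 lymphocyte genes -0.16 and -0.66. For 7 stellate cell genes it was -0.15 and -0.25, and for 4 erythroid genes 0.15 and 0.40. Of the pancreatic acinar genes 3 were measured, with medians of -0.16 and 0.25, and Pnlip and Cela2a were not above background.

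**Figure D4:**
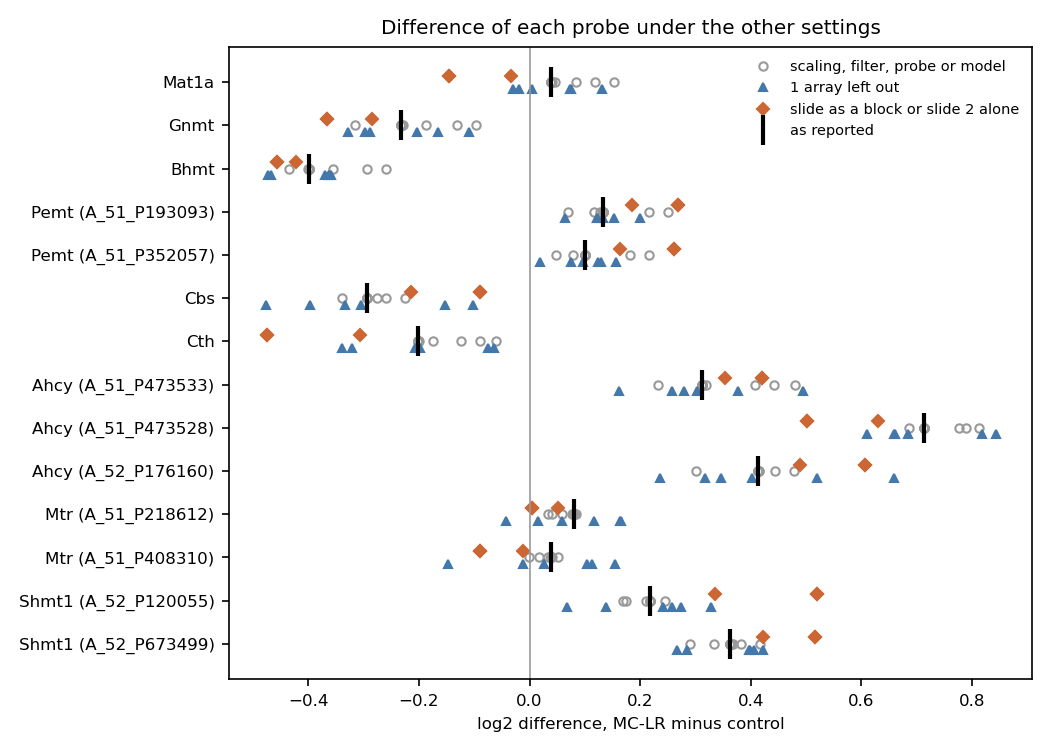
Log2 difference, MC-LR minus control (x axis), of each of the 14 probes (y axis) as reported (black bar) and under the other settings that gave it a value (20 for 9 probes, and 18 for the 5 that are not the brightest of their gene), grouped as scaling, filter, probe rule or model (circles), 1 array left out (triangles) and slide as a block or slide 2 alone (diamonds). For the brightest probe of Pemt, Ahcy, Mtr and Shmt1, 1 circle is the mean of the gene's probes. Bhmt stays between -0.47 and -0.26 and the brighter Shmt1 probe between 0.27 and 0.52, while Mat1a and both Mtr probes have values on either side of 0.

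For Bhmt and Shmt1, the enzymes whose brightest probe had the smallest p, the other genes were ranked by the root mean square difference between log2 profiles over the 6 arrays, each centred on its own mean, among 18907 genes. The nearest to Bhmt were Arhgap10 (0.0530), a GTPase-activating protein, Thoc6 (0.0558), a subunit of the mRNA export complex, and E2f2 (0.0586), a cell cycle transcription factor. The nearest to Shmt1 were Atg4d (0.0116), an autophagy protease, Atp23 (0.0310), a mitochondrial protease, and Plcg1 (0.0515), a phospholipase. Atg4d read 8.36, 8.38 and 8.11 in controls and 8.85, 8.53 and 8.59 with MC-LR. Control 3 was the lowest and MC-LR 1 the highest, as for Shmt1, which follows from how Atg4d was picked.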

How the data were processed

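The deposited scanner files give each spot's intensity on 6 single-colour arrays. They were written by Agilent Feature Extraction, version 10.7 (source: per the labels and the submitters' notes on processing). Per the file headers, the processed intensity is background-subtracted, and dim spots carry a surrogate value. Values in the deposited table are log2 and were quantile normalized by the authors in GeneSpring, per the series' design text. Its columns each had a median of 5.94, correlated at r of at least 0.998 with log2 of their own array's processed signal, and differed from quantile values recomputed here by a median of at most 0.00172. They are therefore log2, not centred by gene, with higher meaning more signal. All columns of per-sample values were mapped to samples through titles.

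Those log2 values were compared per probe with two-sided moderated tests of limma 3.58.1 (lmFit, eBayes; R 4.3.3; degrees of freedom 4 residual, 2.18 prior). Adjustment was by Benjamini-Hochberg over 28507 probes, each well above background in every liver of a group. A gene in a list was represented by its brightest probe. Members come from the files' gene names, and the RefSeq table of GRCm38.p6 gave the same name for all 14 probes. Probe positions are those of the files (mm9). Slide was read from the array headers, and each slide was 1 scan. The main limma fit was first tested on values simulated at each probe's own mean and spread, and the other settings were not. Named genes are the members, 10 genes at the same or neighbouring steps (1 of them is not reported here), the 2 with the smallest p of each other list, and the 3 nearest profiles for 2 members. Members, lists and rules were chosen with earlier results of these data known. List genes with no probe here (Amt and Pck1) were not analysed. Groups and replicate numbers come from the titles. The numbers were not taken to pair the livers. Same-numbered livers' deviations from their group means correlated at 0.17, -0.30 and -0.18. With 3 livers per group and 2 controls alone on 1 slide, these values cannot exclude a pairing. Other settings were quantile normalization from the scanner files, 75th percentile and median scaling, normexp (offset 50), other filters and probe rules, slide as a block (fixed or random), slide 2 alone, the replicate block, array weights, a trended robust eBayes and each array left out.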

Additional observations from a re-analysis of the deposited data

How the results depend on the processing

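Under the alternative settings that gave them a value (20, or 18 for probes that are not the brightest of their gene) the probes of Gnmt, Bhmt, Pemt, Cbs, Cth, Ahcy and Shmt1 kept their sign. Several settings could not turn it. The other filters, testing 1 probe per gene, the replicate block and the trended robust eBayes leave a probe's difference unchanged. Slide as a fixed block and slide 2 alone give the same difference. The mean of probes is counted under the brightest probe, and for a gene with 1 probe it is that probe. Bhmt lay between -0.47 and -0.26 (limma adjusted p = 0.0984 to 0.676), and the brighter Shmt1 probe between 0.27 and 0.52 (0.0935 to 0.704). Both had an unadjusted p under 0.05 in 16 of 20. Bhmt was not under that limit with either scaling that leaves out quantile normalization. Its difference was -0.29 with 75th percentile scaling and -0.26 with median scaling. The brighter Shmt1 probe stayed under the limit with both, at differences of 0.38 and 0.42. Ahcy A_51_P473528 lay between 0.50 and 0.84 (adjusted p = 0.0371 to 0.664, 18 settings) and passed the threshold with array weights, at 0.79. Mat1a turned to -0.15 with slide as a fixed block and on slide 2 alone and to -0.0327 with slide as a random block. With 1 array left out it ran from -0.0291 to 0.132, turning without MC-LR 3 and without control 1 (-0.0190). Mtr A_51_P408310 turned to -0.0900 with slide as a fixed block and on slide 2 alone, to -0.0109 with slide as a random block and to -0.0012 with 75th percentile scaling. With 1 array left out it ran from -0.15 to 0.154, turning without MC-LR 2 and without control 1 (-0.0116). Mtr A_51_P218612 ran from -0.0430 to 0.165, turning without control 2. The cause was not tested.

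The 3 probes past the adjusted threshold became 1 with 75th percentile scaling, median scaling or the strict filter, 13 with slide as a fixed block, 0 on slide 2 alone (3322 at an unadjusted p under 0.05), 1203 with array weights, and 1 to 70 with 1 array left out (70 without control 3). The 3684 probes at an unadjusted p under 0.05 became 2430 and 2392 with 1 probe or the mean of probes per gene, where fewer features were tested, 8319 with array weights, and 2087 to 5815 with 1 array left out, the highest without control 3. The members' count of 3 ranged from 1 to 5, and their median of 0.04 from -0.0430 to 0.0730, with 1 array left out. The median was -0.0889 with slide as a fixed block and on slide 2 alone. With the replicate block, limma called 0 probes at the adjusted threshold and 2875 at an unadjusted p under 0.05, Bhmt at -0.40 (adjusted p = 0.459). By their titles, the livers of a block share only a number. All 14 probes were well above background on every array.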
